A study of Mus musculus with 6 samples.

Results

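The Ifi200 genes and Aim2 form a cluster on mouse chromosome 1 whose proteins bind DNA, and 10 of them were followed here in atherosclerotic mouse aorta: Ifi202b, Ifi203, Ifi204, Ifi206, Ifi207, Ifi209, Ifi211, Ifi213, Mndal and Aim2. They were chosen by symbol, and each had a single row among the 36557 gene rows of the deposited tables. RNA had been sequenced from the aortic arch with the thoracic aorta in 3 Apoe-/- MiR26b-/- libraries, called knockout below, and 3 Apoe-/- control libraries. All 6 came from mice given a high-fat diet for 4 weeks. Loss of Apoe, which both groups carry, slows the clearance of lipoproteins from blood and leads to plaque on such a diet. The labels used here give no strain background, age or sex, and are silent on whether libraries come from different animals. P-values therefore gauge only library-to-library variation, which may be technical. The tables had 0 rows for Mir26b or any other microRNA gene, so the deletion was not checked. The comparison asks how loss of this microRNA changes the vessel's RNA.

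Proteins of this family carry a HIN domain that grips double-stranded DNA, and most also carry a pyrin domain that binds other pyrin domains. AIM2 senses DNA in the cytosol, recruits the adaptor encoded by Pycard and so switches on caspase-1, which matures interleukin-1 and opens the pore-forming protein encoded by Gsdmd. Interferon raises the transcription of most family genes in macrophages and other cells, and the cluster differs in sequence, copy number and expression between inbred mouse strains.

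The members spanned 173350879 to 173982744 of chromosome 1 (GRCm38, GENCODE mouse release 21), far from Mir26b, whose mature strand is annotated at 74394324 to 74394344 of the same chromosome. RefSeq promoter windows (GRCm38.p6), from 250 bases before each start to 50 bases from the start onward, were on hand for 9 of the members, all but Ifi204. A pair of GAAA runs with any 2 bases between them, the core of the element bound by interferon regulatory factors, was searched on both strands and lay in a window of 6 of these 9 genes, against 3.44% of all 32851 promoter windows. Ifi203 and Mndal had 2 windows each, so a count of genes stands here beside a share of windows. The form GAAATCGAAA was found in 5 members and in 16 windows (0.0487%) of the whole set. It was picked as the commonest form in the members' own windows, so its rarity elsewhere is no test. Windows of its relatives Ifi208 and Ifi214 are also among the 16. The following 60-base stretches are read 5′ to 3′ on each gene's own strand, with the paired element in capitals, to show how closely the 6 members that hold it and 2 relatives outside the list resemble each other.
Ifi206, chr1:173491324-173491383: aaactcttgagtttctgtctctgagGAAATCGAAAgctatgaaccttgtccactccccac
Ifi213, chr1:173599311-173599370: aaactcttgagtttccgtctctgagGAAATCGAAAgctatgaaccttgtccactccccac
Ifi207, chr1:173741816-173741875: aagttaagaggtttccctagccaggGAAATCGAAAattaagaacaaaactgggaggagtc
Mndal, chr1:173880189-173880248: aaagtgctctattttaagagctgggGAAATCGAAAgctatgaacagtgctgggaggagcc
Ifi211, chr1:173913049-173913108: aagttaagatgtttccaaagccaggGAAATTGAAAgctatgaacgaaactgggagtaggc
Ifi203, chr1:173942493-173942552: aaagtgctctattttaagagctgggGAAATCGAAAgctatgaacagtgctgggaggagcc
Ifi208, chr1:173673582-173673641: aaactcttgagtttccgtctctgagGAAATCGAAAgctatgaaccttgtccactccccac
Ifi214, chr1:173536002-173536061: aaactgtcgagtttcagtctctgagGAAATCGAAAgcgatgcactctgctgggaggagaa

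The first base of the motif stood at -40 in Ifi206, -73 in Ifi213, -41 in Ifi207, -36 in Mndal, -37 in Ifi211 and -35 in Ifi203, counted from the annotated start of transcription. The stretches of Mndal and Ifi203 were identical, as were those of Ifi213 and of Ifi208, a family gene outside the list. Ifi205, another family gene outside the list, held GAAATTGAAA, the form of Ifi211, at -134, and its stretch is not shown. Ifi209 held 9 of the 10 letters of GAAATCGAAA at -79, and Aim2 and Ifi202b held at most 6. Such matches describe letters only. They do not show binding.

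Members also share sequence with relatives in their transcripts, which bears on every value given here. The deposited counts were estimated by kallisto, which divides a read between transcripts that could have produced it. Of the 31-base stretches in the annotated transcripts of Ifi211, 78.9% also occurred in another gene, mainly Ifi205 (49.5%) and Ifi204 (38.6%). For Ifi209 the share was 47.2%, nearly all with Ifi214 (46.8%), and for Ifi206 it was 36.4%, with Ifi213 (16.8%) and Ifi208 (16.2%). It was 34.6% for Ifi204, 28.7% for Mndal, 26.6% for Ifi213, 21.9% for Ifi203 and 14.8% for Ifi207. Aim2 and Ifi202b stood out as nearly unique, at 5.26% and 1.2%, and neither shared a stretch with another member. Gene models also overlap: that of Mndal covers those of Ifi211 and most of Ifi203 on the same strand, and that of Aim2 crosses Cadm3 on the opposite strand. Whether the libraries keep strand is not given in the sources used here, so levels of overlapping genes are uncertain.

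**Figure D1:**
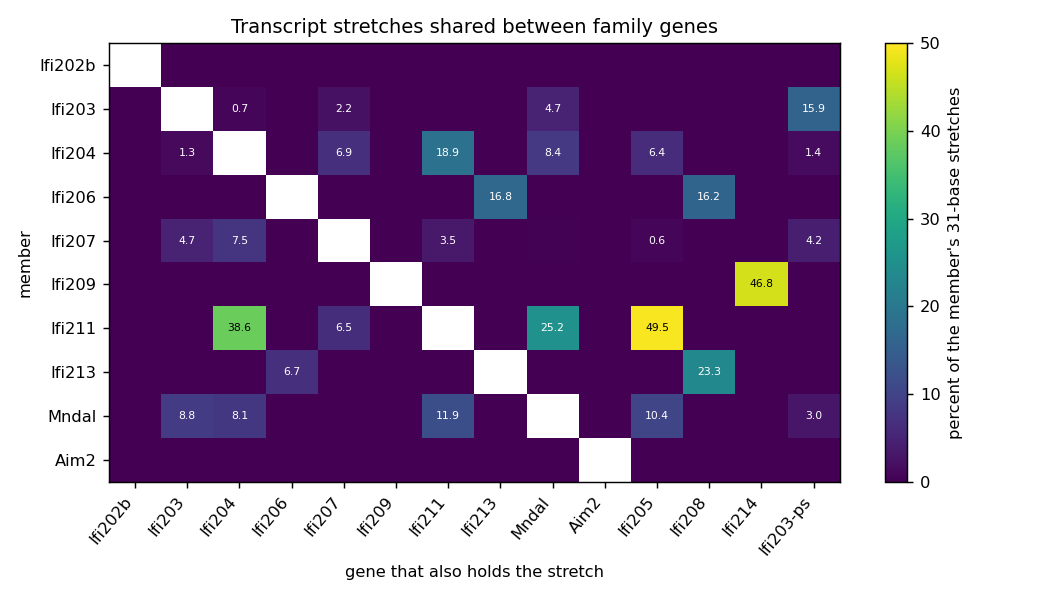
Percent of each member's 31-base transcript stretches (rows) that also occur in transcripts of another family gene (columns), with values of at least 0.5 printed and the colour scale ending at 50. Ifi211 shared most with Ifi205 and Ifi204, Ifi209 with Ifi214, and Aim2 and Ifi202b with no gene shown.

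Of the 10 members, 7 rose in the knockout aortas, 0 fell, 2 stood higher without passing the test, and Ifi202b was too low to test. The 7 were Aim2, Ifi203, Ifi204, Ifi206, Ifi207, Ifi211 and Ifi213, each with an adjusted p under 0.05 (edgeR quasi-likelihood F-test, Benjamini-Hochberg, 17392 genes). Over all tested genes 6.5% were called higher and 3.84% lower. For the 9 tested members the log2 fold change ran from 0.82 to 2.30, with a median of 1.60, where the median over all tested genes was -0.0033. Ifi202b is the 1 member that did not pass the filter on low counts, so these 9 are not the whole cluster.

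Together the 10 members summed to 168, 194 and 130 CPM (TMM-scaled CPM, a count relative to the library's total) in knockout replicates 1, 2 and 3, and to 65.0, 82.9 and 49.96 CPM in the controls. The lowest knockout was above the highest control, and the ratio of the means was 2.48. This sum is not changed by reads divided wrongly among the members themselves, though it is by exchange with relatives outside the list. In bulk tissue, more cells that express these genes and more of their RNA per cell cannot be told apart. With no strain background in the labels, whether both groups carry the same strain form of this cluster was not tested.

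Aim2 (ENSMUSG00000037860, 173350879 to 173466040, plus strand), the cytosolic DNA sensor of the inflammasome, had 8.25, 8.90 and 4.34 CPM in the knockouts, against 2.51, 3.11 and 1.48 CPM in the controls. All knockouts were above all controls, and knockout replicate 3 was the lowest of its group. The mean was 7.16 ± 2.47 CPM in knockouts and 2.37 ± 0.824 CPM in controls (SD, n = 3 each), a 3.02-fold rise (log2 1.60, SE 0.36, edgeR adjusted p = 0.0433). Being almost free of shared stretches, it is the tested member whose count depends least on the division of reads among relatives. Its gene model crosses that of Cadm3, as said above.

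Ifi204 (ENSMUSG00000073489, 173747293 to 173766943, minus strand) encodes p204, a nuclear and cytosolic DNA sensor related to human IFI16 and linked to interferon induction through STING. It had 29.4, 31.7 and 19.3 CPM in the knockouts, against 8.07, 11.7 and 7.34 CPM in the controls. The groups did not overlap, and knockout replicate 3 was again the lowest of its group. The rise was 2.96-fold (log2 1.57, SE 0.25, edgeR adjusted p = 0.0266).

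Ifi203 (ENSMUSG00000039997, 173920407 to 173942672, minus strand) had the highest level of the cluster. It had 42.7, 47.3 and 43.9 CPM in the knockouts, against 23.7, 29.0 and 19.3 CPM in the controls. In contrast to Aim2 and Ifi204, the 3 knockouts were close together. The rise was 1.86-fold (log2 0.89, SE 0.14, edgeR adjusted p = 0.0269). Its neighbour Mndal (ENSMUSG00000090272, 173849126 to 173942491, minus strand), named for its likeness to the human myeloid gene MNDA, had 9.19, 12.9 and 10.3 CPM in the knockouts, against 7.50, 6.84 and 4.05 CPM in the controls. The groups did not overlap, but the difference (1.76-fold, log2 0.82, SE 0.25) did not pass the test (edgeR adjusted p = 0.0794). These were the smallest fold changes of the tested members. No test between genes was made.

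Ifi211 (ENSMUSG00000026536, 173896345 to 173913046, minus strand) had 19.3, 22.9 and 12.7 CPM in the knockouts, against 4.71, 7.18 and 4.89 CPM in the controls. Its rise was 3.27-fold (log2 1.71, SE 0.26), and its edgeR adjusted p of 0.0255 was the lowest of the members. Most of its transcript is shared with Ifi205 and Ifi204, so its count is the most exposed to the division of reads. Ifi207 (ENSMUSG00000073490, 173723427 to 173741747, minus strand) had 34.5, 40.1 and 21.3 CPM in the knockouts, against 12.8, 14.0 and 8.92 CPM in the controls. It rose 2.69-fold (log2 1.43, SE 0.27, edgeR adjusted p = 0.0325), again without overlap of the groups.

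By mean TPM, the deposited scale per transcript length, Ifi206, Ifi213 and Ifi209 were the lowest of the tested members in both groups. Ifi206 (ENSMUSG00000037849, 173468485 to 173491041, minus strand) had 4.32, 4.37 and 3.41 CPM in the knockouts, against 0.454, 1.52 and 0.475 CPM in the controls, where replicate 2 stood far above the others. It had the largest fold change of the members, 4.94-fold (log2 2.30, SE 0.47, edgeR adjusted p = 0.0367). Leaving out control replicate 2 raised its log2 fold change to 3.11. Ifi213 (ENSMUSG00000073491, 173566283 to 173599274, minus strand) had 6.57, 9.38 and 6.10 CPM in the knockouts, against 1.72, 3.03 and 1.43 CPM in the controls. It rose 3.56-fold (log2 1.83, SE 0.32, edgeR adjusted p = 0.0304). Ifi209 (ENSMUSG00000043263, 173630917 to 173647928, plus strand) had 13.8, 16.2 and 8.33 CPM in the knockouts, against 3.59, 6.55 and 1.997 CPM in the controls. Its difference was as large as that of Aim2 (3.16-fold, log2 1.66), but with an SE of 0.45 the edgeR adjusted p was 0.0614.

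Ifi202b (ENSMUSG00000026535, 173962568 to 173982744, minus strand) encodes a protein with no pyrin domain that can hold AIM2 back from its adaptor. It is known to be barely expressed in C57BL/6 mice and high in some other strains, such as NZB. It had estimated counts of 1.01, 0 and 0 in the knockouts, against 1.02, 0 and 1.996 in the controls. All 6 libraries were below 3 counts, so no fold is given. Its transcript is nearly unique, so few of its reads could have been assigned to relatives.

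**Figure D2:**
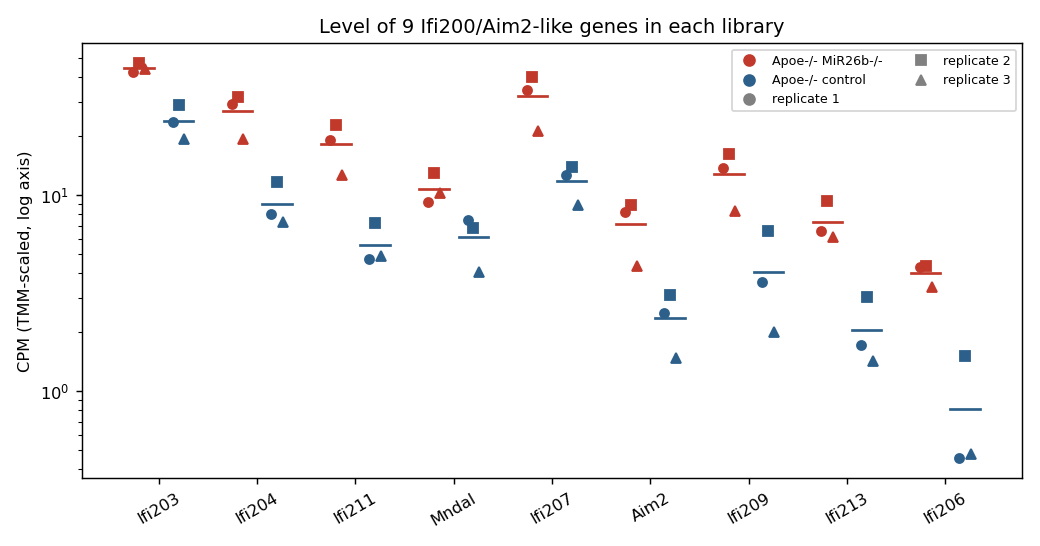
TMM-scaled CPM (log axis) of 9 members in each library, with Apoe-/- MiR26b-/- left of Apoe-/- control for each gene, marker shapes for replicates and lines for means. Ifi202b, at 0 to 1.996 estimated counts, is not drawn. In each gene shown the lowest knockout lies above the highest control.

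Groups did not overlap in 9 of 9 tested members, with the knockouts higher in all 9. Over all tested genes 18.9% had every knockout above every control and 17.2% every knockout below every control. The scale per transcript length, the deposited rescaled TPM, allows the members to be ranked against each other. In the knockouts Ifi203 led with a mean of 23.5, followed by Ifi204 (20.4), Ifi211 (17.9), Mndal (17.1), Ifi207 (15.2), Aim2 (10.7), Ifi209 (6.27), Ifi213 (5.60), Ifi206 (2.16) and Ifi202b (0.0066). The ranges of neighbours in this order overlapped from Ifi203 down to Ifi213, while Ifi206 and Ifi202b were set apart. In the controls Ifi203 was again first at 12.6, with its range above all others, and Mndal (8.89) came before Ifi204 (6.96), Ifi207 (5.54), Ifi211 (5.38), Aim2 (3.36), Ifi209 (1.98), Ifi213 (1.35), Ifi206 (0.442) and Ifi202b (0.0195). Ifi203 and Mndal made up 20.3% and 14.7% of the summed TPM of the cluster in the knockouts, and 27.4% and 19.2% in the controls.

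The family genes outside the list with a row, Ifi205, Ifi203-ps, Ifi208 and Ifi214, did not pass the edgeR test. Ifi205, which lies just beyond Ifi202b, had 9.94, 10.3 and 5.55 CPM in the knockouts, against 2.70, 5.70 and 3.69 CPM in the controls (log2 1.09, SE 0.34, edgeR adjusted p = 0.0853). Its groups overlapped, since control replicate 2 was above knockout replicate 3. The pseudogene Ifi203-ps had a log2 difference of 1.18 (SE 0.50, edgeR adjusted p = 0.167) and Ifi214 one of 0.15 (SE 0.30, adjusted p = 0.765). Ifi208, between Ifi209 and Ifi207, had 1.16, 1.69 and 1.799 CPM in the knockouts, against 2.14, 2.57 and 1.94 CPM in the controls (log2 -0.52, SE 0.22, edgeR adjusted p = 0.165). Its upstream stretch is the one identical to that of Ifi213, and its knockout values lay below its controls, where those of Ifi213 lay above. Of the transcript stretches of Ifi213, 23.3% also occurred in Ifi208, the largest share with any gene, so reads could be divided wrongly between these 2 genes. Whether this moved their values was not tested, and neither was the difference between them or any part of the shared upstream stretch in it.

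**Figure D3:**
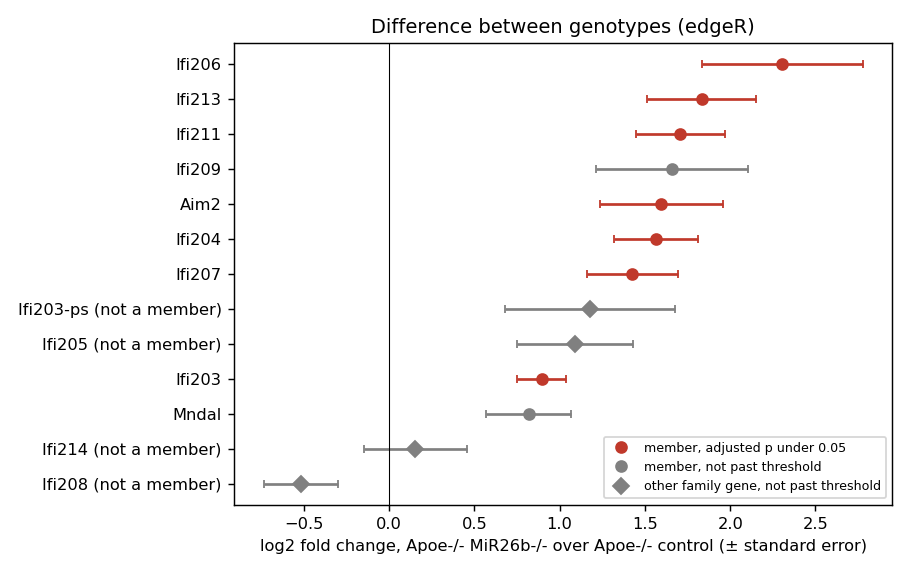
Fold change (log2, ± standard error) of Apoe-/- MiR26b-/- over Apoe-/- control for the 9 tested members (circles) and 4 other family genes (diamonds), red where the edgeR adjusted p is under 0.05. The 7 members called lie between 0.89 and 2.30, and Ifi208 is the 1 gene below 0.

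The libraries differed within groups, and the members followed this to different degrees. On a principal component analysis of all tested genes, knockout replicate 3 scored -0.97 on the leading axis (61.9% of the variance), where the other knockouts stood at -47.0 and -55.7 and the controls between 25.4 and 45.3. The median of the 9 tested members relative to the control mean, on the log2(CPM + 0.5) scale, was 1.65, 1.78 and 1.08 in knockout replicates 1, 2 and 3, and -0.02, 0.38 and -0.36 in the controls. Relative to the mean of the other knockouts, replicate 3 differed on the log2 scale by -0.98 for Aim2, -0.85 for Ifi209, -0.81 for Ifi207, -0.73 for Ifi211 and -0.66 for Ifi204. The same difference was -0.39 for Ifi213, -0.35 for Ifi206, -0.10 for Mndal and -0.04 for Ifi203.

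Macrophage markers moved with the cluster. Of 12 such markers 11 rose and 1, Mertk, fell, where 6.5% of all tested genes rose and 3.84% fell. Their summed level was 1571 to 3942 CPM in the knockouts, against 753 to 917 CPM in the controls. Relative to the other knockouts, replicate 3 differed by -1.59 to -0.67 (log2) over the 11 that rose, with a median of -1.13. The values of Aim2, Ifi209, Ifi207 and Ifi211 fall in that range, and those of the other 5 tested members lie above it, Ifi204 only just. Mertk, which fell, stood at -0.06. In the list of interferon receptors and signalling, the 7 genes that rose differed in replicate 3 by -0.30 to 0.07. That range also holds the values of Ifi203 and Mndal. These ranges cover called genes only, and a low replicate 3 makes a call less likely. Over the whole interferon list the lowest value was -0.52, in Ifnar2, and that span also holds Ifi213 and Ifi206. The ranges of the other lists were wider: -1.05 to -0.23 over the 7 DNA sensing genes that rose, which holds 7 of the 9 tested members, and -2.40 to 0.0051 over the 8 inflammasome genes that rose, which holds all 9. In the controls, B cell markers were far higher in replicate 2, the control in which 8 of the 9 tested members were highest: their sum was 6.08 to 8.83 CPM in the knockouts and 6.77 to 60.0 CPM in the controls, and none of these 5 genes passed the test. Summed T cell markers were 9.20 to 23.3 CPM in the knockouts and 5.72 to 14.2 CPM in the controls, neutrophil markers 10.8 to 51.5 and 5.27 to 10.8 CPM, and dendritic cell markers 69.7 to 149 and 35.7 to 39.8 CPM. Of 6 T cell markers 0 passed, of 5 tested neutrophil markers 1 rose, and of 6 dendritic cell markers 4 rose. Replicate 3 also differed by -1.63 (Itgax) to -0.23 (Cd209a) over the 4 dendritic cell markers that rose. That range holds Aim2, Ifi209, Ifi207, Ifi211, Ifi204, Ifi213 and Ifi206. Over the 6 T cell markers it differed by -1.54 (Cd4) to -0.47 (Cd3d). A low replicate 3 is thus not particular to macrophage markers. Ly6g, which defines neutrophils, was at or under 0.0569 CPM in the knockouts and 0.0576 CPM in the controls. The part of any of these cell types in the change of the cluster was not tested. The vessel's own markers were abundant in both groups, with Acta2 the clearest for smooth muscle. Smooth muscle markers summed to 20899 to 24675 CPM in the knockouts and 30918 to 35518 CPM in the controls. Of these 6 genes 4 were called lower in the knockouts. Endothelial markers summed to 1583 to 1756 and 1469 to 1877 CPM, fibroblast markers to 5219 to 7003 and 3815 to 4411 CPM, and adipocyte markers to 154 to 897 and 314 to 1194 CPM. Of 5 endothelial markers 1 rose, of 6 fibroblast markers 3 rose, and of 6 adipocyte markers 0 passed. Summed adipocyte markers were 154, 247 and 897 CPM in knockout replicates 1, 2 and 3, and 1194, 677 and 314 CPM in the controls. Replicate 3 was thus the knockout richest in fat markers, and the bearing of this on its other values was not tested. The fibroblast markers that rose, Lum, Dcn and Pdgfra, differed in knockout replicate 3 by -1.08, -0.32 and -0.20 (log2). The value of Lum falls in the range of the macrophage markers that rose.

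**Figure D4:**
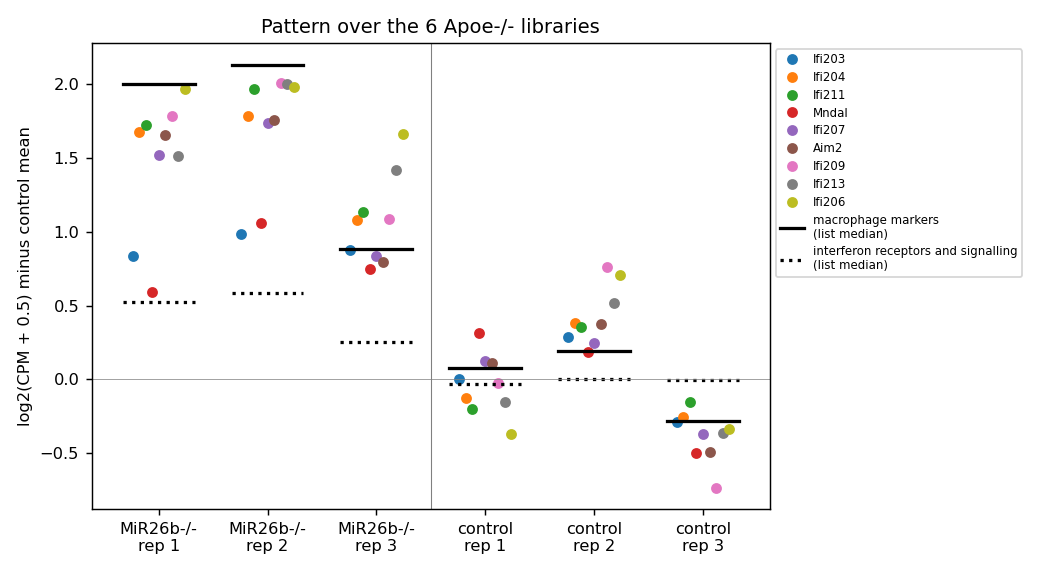
Level of the 9 tested members in each library as log2(CPM + 0.5) minus the control mean, with black lines for the median of the macrophage markers and dotted lines for the median of the interferon receptor and signalling list. In knockout replicate 3 most members lie lower than in the other knockouts, and Ifi203 and Mndal do not.

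The genes whose pattern over the 6 libraries was nearest to the average of the tested members were found by the root mean square difference of centred log2 CPM, among 13253 genes outside the locus whose log2 CPM averaged 1 or more. They were Themis2, a signalling protein of B cells and macrophages (0.0716), the cell cycle kinase gene Cdk1 (0.0933), the ribonuclease gene Ear2 (0.0944) and the endosomal nuclease gene Pld4 (0.111), which has 2 rows with the same values. The median over these 13253 genes was 0.866. Of the members themselves, Ifi204 was nearest to the average (0.106) and Ifi206 farthest (0.560). Themis2 had 19.4, 23.8 and 13.2 CPM in the knockouts, against 6.35, 8.55 and 4.47 CPM in the controls.

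Partners of the cluster in DNA sensing were also higher. Of 11 tested genes of DNA sensing and interferon induction, 7 rose and 0 fell, with a median log2 fold change of 0.62. Over all tested genes 6.5% rose and 3.84% fell, with a median of -0.0033. This list, like those that follow, was chosen with earlier results of these data known. Irf7, the transcription factor that amplifies type I interferon, had 22.9, 26.5 and 21.1 CPM in the knockouts, against 6.39, 8.95 and 6.90 CPM in the controls (log2 1.66, SE 0.15, edgeR adjusted p = 0.00966). Zbp1, a sensor of Z-form nucleic acid, rose 4.2-fold (adjusted p = 0.0173) and Trex1, the nuclease that clears cytosolic DNA, 1.48-fold (adjusted p = 0.0328). Cgas, the enzyme that makes cGAMP upon binding DNA, rose 1.78-fold, and Sting1, the receptor for cGAMP, 2.72-fold, with the lysosomal nuclease gene Dnase2a and Samhd1 also called. The kinase gene Tbk1 and the factor gene Irf3, which act below STING, had log2 differences of 0.03 (SE 0.07) and 0.07 (SE 0.05) and did not pass. Interferon beta itself, Ifnb1, had at most 0.0190 CPM in a knockout and 0 in each control, too low to test.

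Of 12 tested inflammasome genes 8 rose and 0 fell, beside 6.5% and 3.84% of all tested genes, with a median log2 fold change of 0.70. The adaptor gene Pycard had 21.0, 22.2 and 14.6 CPM in the knockouts, against 10.4, 11.7 and 9.49 CPM in the controls (log2 0.87, SE 0.17, edgeR adjusted p = 0.034). Casp1 rose 1.63-fold, Gsdmd 1.70-fold, and Il1b, the cytokine that caspase-1 matures, 14.6-fold, with knockout replicate 3 at 4.07 CPM where the other knockouts had 19.0 and 24.0 CPM. The 3 of lowest p were interferon-induced GTPase genes: Irgm1 at 1.63-fold (adjusted p = 0.0107), Gbp5 at 1.46-fold (0.0267) and Gbp2 at 1.41-fold (0.0304). Il18 did not pass (log2 0.54, SE 0.18, adjusted p = 0.0959).

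Of 14 genes of interferon receptors and signalling 7 rose and 0 fell, beside 6.5% and 3.84% of all tested genes. Their median log2 fold change was 0.53. Usp18, which damps the type I interferon receptor, had 11.04, 11.6 and 11.9 CPM in the knockouts, against 4.08, 4.86 and 4.15 CPM in the controls (log2 1.40, SE 0.10, edgeR adjusted p = 0.00683). The ubiquitin-like modifier gene Isg15 rose 2.93-fold (adjusted p = 0.009) and Stat2, a subunit of the factor that binds such paired GAAA elements, 1.64-fold (adjusted p = 0.0107). Irf9, Irf1 and Ifngr1 were also among those called. The receptor genes Ifnar1 and Ifnar2 did not pass, at 1.26-fold and 1.48-fold with adjusted p of 0.054 and 0.0591.

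Neighbours on the chromosome were read beside the cluster. Within 2 Mb before its first member 41 genes were tested, of which 9 rose and 0 fell, and within 2 Mb after its last member 15 were tested, of which 1 rose and 0 fell. Over all tested genes 6.5% were called higher and 3.84% lower. The median log2 fold changes before and after the cluster were 0.20 and 0.14, against -0.0033 over all tested genes. Among the 41 were 9 genes of the Slam family of leukocyte receptors, picked out here after their values were seen. Slamf7, Slamf8, Slamf9, Ly9, Cd48, Cd84 and Cd244a rose. Slamf1 (log2 0.09, SE 0.48, edgeR adjusted p = 0.923) and Slamf6 (log2 0.15, SE 0.54, adjusted p = 0.881) did not pass. The called neighbour nearest to the first member, Slamf8, starts 769 kb before it. Cadm3, which overlaps Aim2, had a log2 difference of 0.44 (SE 0.16) and did not pass (edgeR adjusted p = 0.121).

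Since a microRNA was deleted, sites for it were searched in the longest annotated 3′ UTR of each member (GENCODE mouse release 21). The mature strand (RefSeq, GRCm38.p6) is shown with its seed, bases 2 to 8, in capitals, followed by the 1 site found, in Ifi203, with the bases that pair with the seed in capitals.
mmu-miR-26b-5p: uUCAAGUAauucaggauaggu
Ifi203 site: tggtaagactTACTTGAtaaagcaact
Sites pairing with the whole seed, or with bases 2 to 7 and followed by an A, were counted. None was found in the other 9 members, whose 3′ UTRs are 165 to 1957 bases long, against 2129 bases in Ifi203. Of all 21699 genes with such a UTR, 17.7% held at least 1 site. Ifi203 had, with Mndal, the smallest fold change of the tested members.

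The number of calls depended on which libraries were used. The edgeR test called 0 members without knockout replicate 1, knockout replicate 2, control replicate 1 or control replicate 3, where the adjusted p of the members lay between 0.076 and 0.234 and all 9 had an unadjusted p under 0.05. Of all tested genes 0.0396%, 0.227%, 0% and 0% were called higher in these fits, in that order. The edgeR test called 3 members (Ifi203, Ifi206 and Ifi213) without control replicate 2, where 0.293% of all tested genes were called higher. Without knockout replicate 3 it called 8, all but Mndal, beside 17.2% of all tested genes. The log2 fold change of each tested member was positive in every one of these fits. DESeq2 on all 6 libraries called 9 members higher, beside 12% of all tested genes, and limma-voom 6, beside 3.21%.

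**Figure D5:**
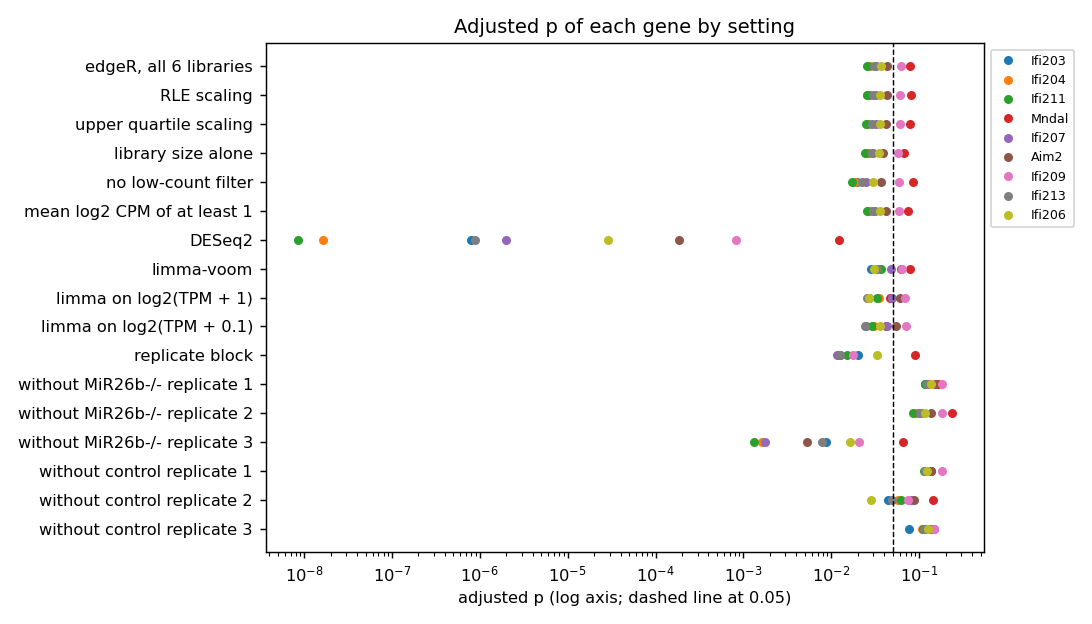
Adjusted p of each tested member (log axis, dashed line at 0.05) under each alternative and without each library in turn. With a knockout other than replicate 3, or with control replicate 1 or 3, left out, every point lies right of the line.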

How the data were processed

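The submitters' processing notes list kallisto 0.46.2, Trim Galore 0.6.5 and FastQC 0.11.8, and the build GRCm38. The authors deposited estimated counts per gene (51634139 to 54817547 per library) that are not whole. In each library the commonest value near 1 was between 0.9004 and 1.0685, so they may have been rescaled, which no label used here records. The second deposited table, TPM by its name, is treated as a signal because its column totals run from 955527 to 1034723.

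Estimated counts were rounded, filtered with filterByExpr (minimum count 10), scaled by TMM and tested with edgeR 4.0.16 in R 4.3.3 on 17392 rows, then checked with DESeq2 1.42.0 and limma 3.58.1. Standard errors are the log2 fold change divided by the root of F. The fit was tested on simulated data. No 2 libraries of a group agreed within sampling noise (mean chi-square per gene 12.2 to 111). All 10 IDs matched GENCODE. The members and lists were chosen with earlier results of these data known. Named genes are all members, the 3 of lowest p and other called genes in each list, and the 5 rows most like the member average. In the list of other family symbols 9 of 13 had no row. Tbk1, Irf3, Ifnb1, Il18, Ifnar1, Ifnar2 and the chromosomal neighbours were named after their values were seen.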

Additional observations from a re-analysis of the deposited data

How the results depend on the processing

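In all 6 libraries, RLE or upper quartile scaling, library size alone, no low-count filter and a mean log2 CPM of at least 1 each called the same 7 members as TMM-scaled edgeR. limma-voom lost Aim2, and limma on log2(TPM + 1) or log2(TPM + 0.1) lost Aim2 and gained Mndal. Leaving out 1 library at a time gave 0 to 8 members higher, 0 to 3051 genes higher and 0 to 2028 lower, against 1131 and 667 in all libraries. In all libraries the count of higher genes was 2086 with DESeq2, 559 with limma-voom, and 461 and 641 with limma on log2(TPM + 1) and log2(TPM + 0.1), and that of lower genes was 1357 with DESeq2 and 251 and 301 with the 2 TPM fits; the cause was not tested. Library size alone gave 1476 higher and 447 lower genes. Same-numbered libraries had correlations of -0.092, 0.234 and 0.0757 in their deviations from the group means. With 3 libraries per group, these values cannot settle whether the numbers pair the samples. The replicate block called 8 members, Ifi209 being the added one, and 1295 higher and 700 lower genes. No member reversed. Depth limits Ifi202b, at under 3 counts in each library.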
